A study of Mus musculus with 10 samples.

Results

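Ctsa, Pigq, Dvl2, Vps26b, Rchy1 and Cops3 are 6 protein-coding identifiers, of 38293 in the count files, that were selected on the outcome of one comparison: the counts of each were higher in wild-type mouse embryonic fibroblasts (MEF) after CBL0137 than without it. CBL0137 is a small molecule that binds DNA and destabilizes chromatin without chemical damage to the DNA, and the series asks how it alters RNA in cells with and without p53 and in a tissue. RNA was sequenced in 10 libraries. Wild-type MEF of strain C57BL/6J were left untreated (n = 2) or received 1 µM CBL0137 for 24 hr (n = 2). p53-/- MEF carried the Trp53tm1Tyj allele, a constitutive knockout of the p53 gene, with 1 untreated library and 1 from cells given CBL0137 at that dose and time. Lungs came from wild-type NIH Swiss mice 7 weeks old that received an intravenous injection of 5% dextrose as vehicle (n = 2) or of 60 mg/kg CBL0137 (n = 2) 24 hr before collection. The sample descriptions give the sex of these mice as female, and the design text of the series as male. CBL0137 was dissolved in DMSO for the cells, and the control cells are labelled untreated, so DMSO and CBL0137 cannot be told apart in MEF. The lungs of a group came from separate mice. The paper calls the replicates of its sequencing biological. The labels do not say whether MEF replicates came from separate embryos or cultures, so their spread may still be technical.

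Because the wild-type MEF comparison chose the 6 identifiers, its values are given as a description, and only the lung libraries, which the choice did not use, were tested. The files hold reads per identifier, not per strand of the genome. Where a gene overlaps another on the opposite strand and the strand setting of the counting is not given in the sources used here, a read from either can be listed under the wrong one, so each identifier is described together with the gene opposite it. Every level below, also of marker and partner genes, is of reads listed under a name and may not be RNA of that gene. The strand the reads came from was not tested.

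The 6 genes belong to unrelated pathways. Ctsa encodes cathepsin A, a lysosomal serine carboxypeptidase that also protects beta-galactosidase and neuraminidase 1 in a complex inside the lysosome. Vps26b encodes a subunit of retromer, the coat that recovers membrane proteins from endosomes. Pigq encodes a subunit of the enzyme that starts glycosylphosphatidylinositol (GPI) anchor synthesis on the endoplasmic reticulum. Dvl2 encodes a dishevelled protein, which relays Wnt signals from Frizzled receptors. Rchy1 encodes Pirh2, a ubiquitin ligase that targets p53 among other proteins and is itself a p53 target gene. Cops3 encodes a subunit of the COP9 signalosome, which removes Nedd8 from cullin ubiquitin ligases.

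In the GENCODE annotation of build GRCm38, 5 of the 6 genes share exon bases with a gene on the other strand. Ctsa (chr2:164832873-164841032, plus strand) shares 324 exon bases with Neurl2, which starts head to head with it, and 495 with Pltp, the phospholipid transfer protein gene, which runs into its end. Dvl2 (chr11:70000595-70012301, plus strand) shares 1151 exon bases with the end of Acadvl, which encodes a mitochondrial acyl-CoA dehydrogenase. In RefSeq the extents of both do not meet, and Dvl2 ends 73 bases before Acadvl. Pigq (chr17:25926421-25944936, minus strand) shares 957 exon bases with the antisense RNA Gm16278. Rchy1 (chr5:91948904-91963068, minus strand) shares 680 with Thap6, a transcribed pseudogene in mouse that has no row in the count files. Cops3 (chr11:59817795-59839838, minus strand) shares 279 with the antisense RNA Gm16062 and 87 with Nt5m, a mitochondrial nucleotidase gene. Vps26b (chr9:27007771-27030065, minus strand) shares none. Its nearest neighbour on the other strand, the condensin gene Ncapd3, starts 109 bases away, and Thyn1 ends 434 bases from its end in GENCODE while the longer RefSeq model of Vps26b overlaps Thyn1 by 2835 bases. The shared bases made up between 10.6% (Cops3) and 18.3% (Dvl2) of the exon bases of the 5 genes.

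**Figure D1:**
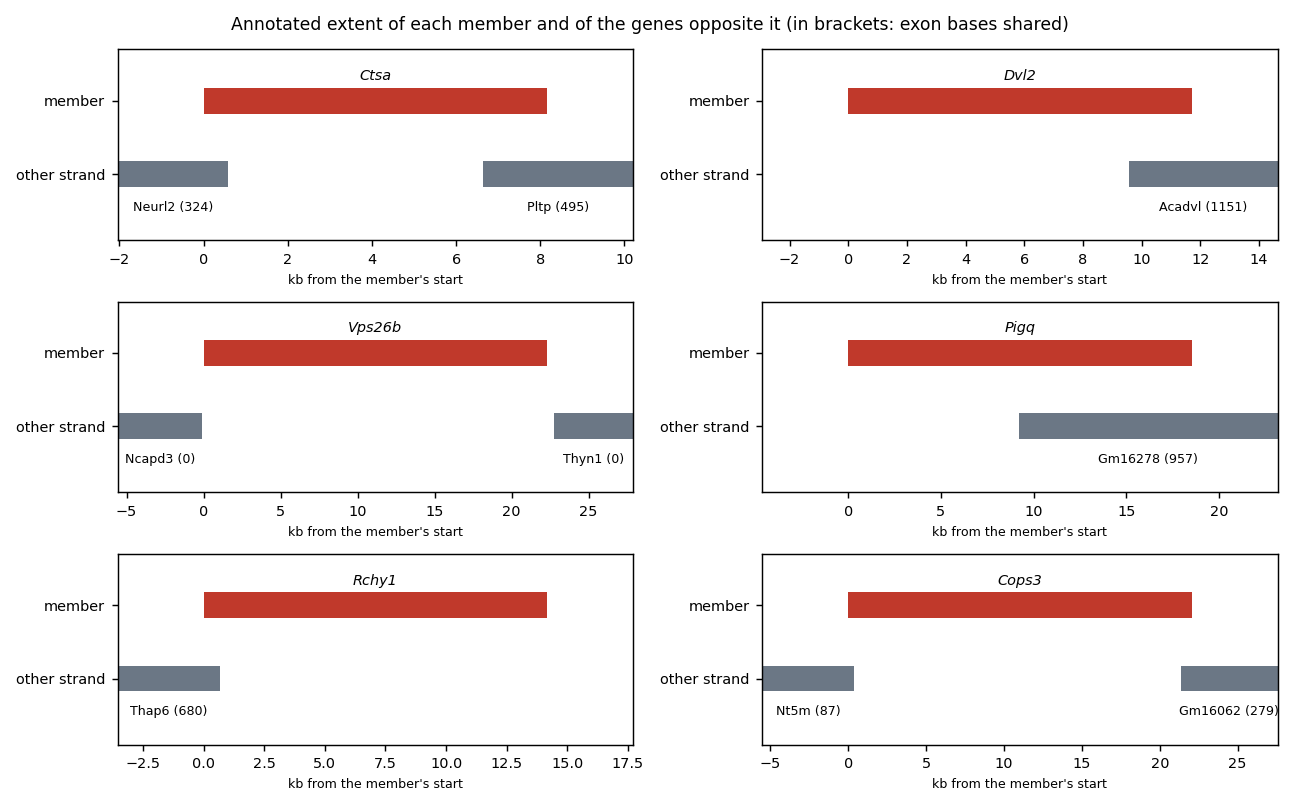
Annotated extent of each gene (red) and of the genes opposite it (grey), in kb from the start of the red gene, with the number of shared exon bases in brackets. Grey bars are clipped at the panel edge, and Gm26694, which spans Pigq without shared exon bases, is not drawn. Dvl2 has the longest shared stretch, 1151 exon bases with Acadvl, and Vps26b has 0 with either neighbour.

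Sharing exon bases with the other strand was common among the identifiers with counts. Of all 38293 identifiers, 18.8% had such bases, against 70.1% of the 1757 with enough counts to enter the wild-type MEF fit and 75.7% of the 74 that were higher there. Identifiers with shared bases took 72.8% of the counts and 29.9% of the exon bases over the 36345 identifiers found in the annotation.

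The sequence in front of the genes is shown for the 2 with the largest counts among MEF, Dvl2 and Vps26b, and for the p53-type motif found near Pigq. RefSeq windows of 300 bases, from 250 before to 50 after a listed start, were available for all 6 genes (GRCm38.p6). The most upstream listed window of each gene was used, which for Pigq and Cops3 lies inside the full RefSeq extent of the gene and not at its upstream end. Both strands were searched for the E-box CACGTG, which Myc and TFEB family factors bind, the CCAAT box, the GC box GGGCGG, the TATA motif TATAAA and the p53 half-site consensus. The Dvl2 window held CACGTG 3 times and GGGCGG 4 times. CACGTG occurred in 7.15% of 32851 RefSeq windows, and 3 or more times in 0.0883% (29 windows). GGGCGG occurred in 35.7% of windows and was also found once in front of Rchy1. The p53 half-site occurred in 8.36% of windows, and of the 6 genes only the Pigq window held it, across the listed start, which is internal to the full extent. Neither CCAAT (37.4% of windows) nor TATAAA (13.6%) was present in any of the 6. The windows of the 6 genes had 61.0% G and C on average, against 53.8% over all windows. In the bases in front of Dvl2 (chr11:70000342-70000591, plus strand) and Vps26b (chr9:27030095-27030174, minus strand, the interval up to Ncapd3), and in 30 bases around the listed start of Pigq (chr17:25941974-25942003, minus strand), capitals mark CACGTG and GGGCGG or the p53 half-site:
Dvl2: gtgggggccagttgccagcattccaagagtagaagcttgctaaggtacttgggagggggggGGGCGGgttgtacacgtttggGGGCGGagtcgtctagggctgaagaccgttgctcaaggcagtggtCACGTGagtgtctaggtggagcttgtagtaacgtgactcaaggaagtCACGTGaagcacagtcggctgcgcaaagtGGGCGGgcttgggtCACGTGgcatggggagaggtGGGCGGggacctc
Vps26b: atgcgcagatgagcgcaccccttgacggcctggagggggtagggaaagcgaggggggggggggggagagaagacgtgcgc
Pigq: tggacagcccGGGCATGTTTggggaccgga

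Only 0.789% to 1.16% of the reads of a library lay on identifiers, which left 16579 to 538717 gene counts per library. Levels are given as CPM, the counts of an identifier for each 1000000 gene counts of its library. Replicate 2 of the vehicle lungs was far shallower than the others, and there the smallest visible level, taken as 3 counts, was 181 CPM against 5.57 to 44.4 in the other libraries. Trp53 had 0 counts in all 4 wild-type MEF libraries, 0 in untreated p53-/- MEF and 5 in treated p53-/- MEF, so these counts do not check the genotype. Wrap53, the gene that starts opposite Trp53, had 0 to 4 counts per library. Summed fibroblast markers were at 591 to 1016 CPM in untreated and 248 to 385 in treated wild-type MEF. In untreated and treated p53-/- MEF they were at 325 and 213. How many of all identifiers lay lower without overlap was not counted, so nothing is read from these ranges. The part of the markers in the differences below was not tested. The sums were carried by Col1a1, Col1a2, Col3a1, Vim and Fn1, while Thy1, Pdgfra, Pdgfrb, Dcn and Lum had at most 2 counts in any library. Lung epithelial markers summed to 409 to 784 CPM in lung and to at most 23.2 in MEF, and endothelial markers to 41.0 to 181 in lung and at most 13.0 in MEF. Blood cell markers summed to 79.7 to 362 CPM in vehicle and 65.6 to 71.8 in treated lungs. Fibroblast markers summed to 64.8 to 241 CPM in vehicle and 49.2 to 60.8 in treated lungs. The epithelial and endothelial ranges of vehicle and treated lungs overlapped. The vehicle ranges include the shallow library, and nothing is read from these differences. In lung, fewer cells of a type and less RNA per cell cannot be told apart.

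All 6 identifiers had higher counts in wild-type MEF after CBL0137, as the choice required. Of the 1757 identifiers in that fit, 74 (4.21%) were higher at an adjusted p below 0.05, 49 of them protein-coding, and nothing is read from the presence of the 6 among them. Both treated libraries were above both untreated libraries for 6 of 6 identifiers, and for 32.2% of all identifiers in the fit. The 6 fell into 2 ranges. Pigq, Rchy1 and Cops3 ranked 2, 3 and 4 by fold among the 74 and had 0 to 6 counts in each untreated library. Ctsa ranked 21, Vps26b 54 and Dvl2 55, and these 3 were already counted in every untreated library.

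Pigq had 6 and 2 counts in the untreated wild-type MEF libraries, 43.8 and 10.4 CPM, and 66 and 195 counts in the treated ones, 977 and 711 CPM. The groups did not overlap, and the lower treated library was far above the higher untreated one. The log2 fold change from edgeR was 4.94 (standard error 0.49), and the ratio of pooled shares was 31.4 with an exact 95% counting interval of 15.7 to 73.5. Rchy1 had 1 and 0 counts without treatment and 8 and 23 with it, 118 and 83.9 CPM. Cops3 likewise had 1 and 0 counts without treatment, and 5 and 24 with it, 74.0 and 87.5 CPM. Pigq, Rchy1 and Cops3 all passed the filter on low counts only through the treated libraries, so all 3 had to differ. The ratios of pooled shares of Rchy1 and Cops3 had wide counting intervals, 29.8 (4.97 to 1216) for Rchy1 and 27.9 (4.63 to 1140) for Cops3. Rchy1 and Cops3 also lay nearest to the threshold, with adjusted p of 0.0399 and 0.0420 from the edgeR fit that chose them, and the protein-coding identifiers just outside it were Ccdc106 (0.0512) and Ccnl2 (0.0513).

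Ctsa had 35 and 38 counts in untreated wild-type MEF, 255 and 198 CPM, and 104 and 445 in treated ones, 1539 and 1622 CPM. Its log2 fold change was 2.72 (standard error 0.19). Dvl2 had 174 and 244 counts without treatment, 1269 and 1271 CPM, and 247 and 987 with it, 3655 and 3598 CPM. Replicates of Dvl2 differed by less than their 95% Wilson intervals in both groups, and its log2 fold change was 1.42 (standard error 0.14). Vps26b had 189 and 282 counts without treatment, 1378 and 1469 CPM, and 276 and 1171 with it, 4084 and 4269 CPM. Its log2 fold change was 1.46 (standard error 0.15), close to that of Dvl2.

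**Figure D2:**
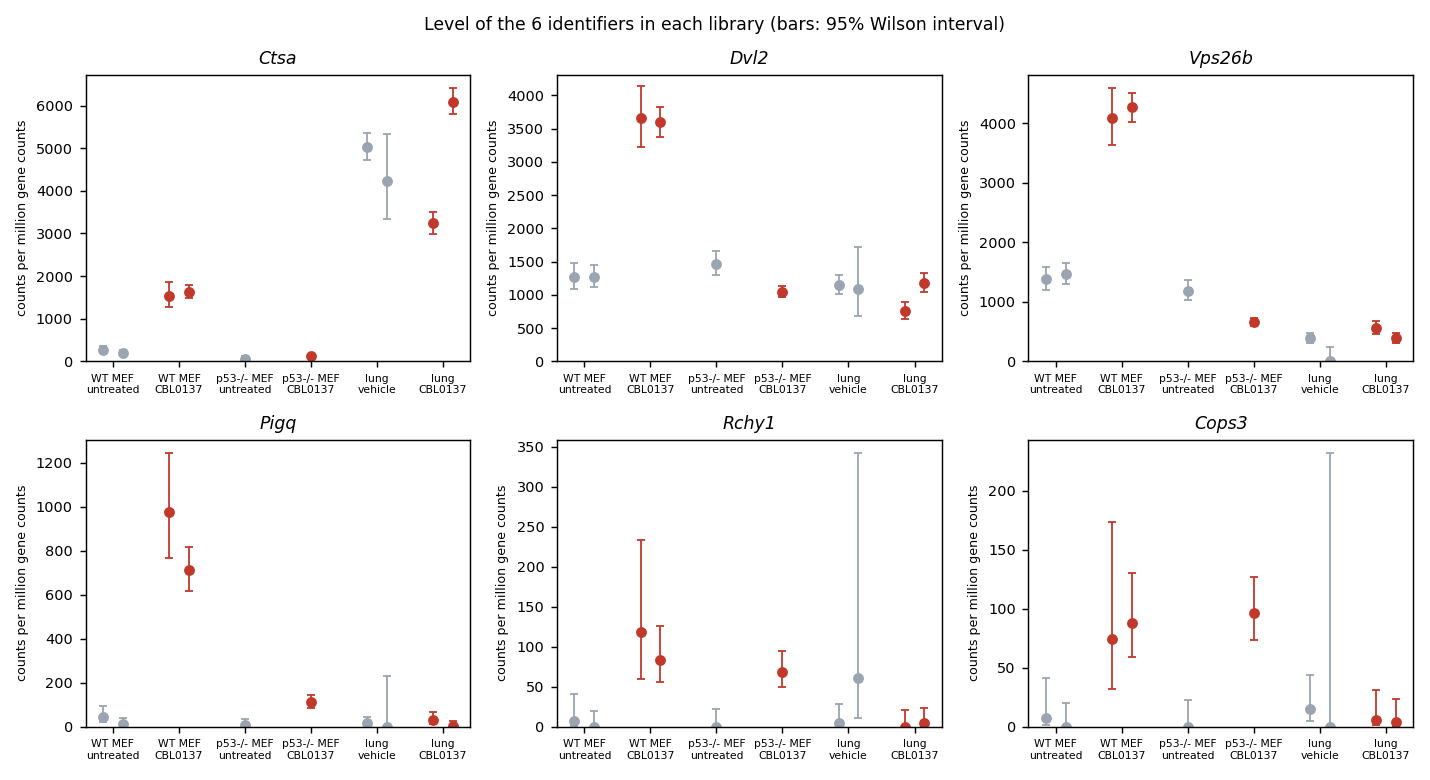
CPM (counts for each 1000000 gene counts) of each identifier in each of the 10 libraries (1 point per library, grey for controls and red for CBL0137, bars 95% Wilson intervals, separate linear axes from 0). In wild-type MEF, the comparison that chose the 6, both red points lie above both grey points in all 6 panels. The wide bars in vehicle lung belong to the library with 16579 gene counts.

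These calls rested on both untreated libraries. Without untreated replicate 1, and likewise without untreated replicate 2, 0 of the 6 passed the threshold, with log2 fold changes still above 0 for each. Without treated replicate 1, 4 of the 6 passed, and without treated replicate 2 the other 2, Rchy1 and Cops3, no longer had enough counts to enter the fit and the remaining 4 passed. DESeq2 called 4 of the 6, with adjusted p of 0.0906 for Rchy1 and 0.139 for Cops3. Over all 1757 identifiers in the fit DESeq2 called 57 in either direction, against 149 with edgeR. The number of all identifiers called also changed with the library left out, as given at the end, so these losses are not particular to the 6.

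The identifiers of the opposite-strand genes did not share the size of these differences in wild-type MEF, again as a description. The 6 were chosen for a rise in these libraries and the opposite genes were not, so larger differences in the 6 follow from the choice. Where reads are listed under the wrong gene, these counts do not measure the RNA of the gene named. Gm16278 opposite Pigq had 12 and 27 counts without treatment and 10 and 49 with it, 114 ± 37.6 and 163 ± 21.7 CPM (SD, n = 2 each). Its ratio of pooled shares was 1.46 (0.956 to 2.24), against 31.4 for Pigq. Gm16062 opposite Cops3 had 44 and 93 counts without treatment and 21 and 151 with it, a ratio of 1.21 (0.960 to 1.52). It had more counts than Cops3 in both untreated and both treated libraries. Nt5m, also opposite Cops3, had 1 to 5 counts per library here. Acadvl opposite Dvl2 had 12 and 15 counts without treatment and 5 and 20 with it, a ratio of 0.891 (0.496 to 1.60), where Dvl2 had 2.84 (2.54 to 3.18). Neurl2 opposite Ctsa had 14 and 9 counts without treatment and 1 and 8 with it, a ratio below 1 of 0.377 (0.153 to 0.845), where that of Ctsa was 7.24 (5.66 to 9.37). Pltp, at the other end of Ctsa, had 2 and 0 counts and then 0 and 6. Ncapd3 and Thyn1 beside Vps26b had 0 to 3 counts in each of these libraries. The long RNA Gm26694, which spans the whole of Pigq on the other strand without sharing exon bases and was named after its values were seen, went the other way from Pigq, with 111 and 152 counts in untreated cells and 21 and 74 in treated ones, a ratio of 0.348 (0.272 to 0.441). These intervals cover counting error only.

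**Figure D3:**
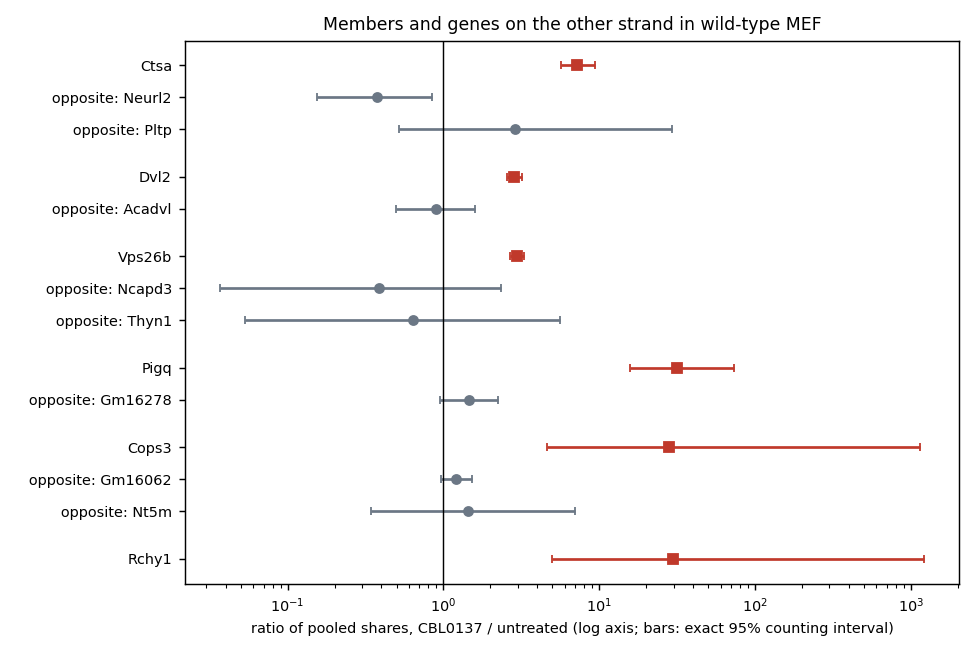
Ratio of pooled shares, CBL0137 over untreated, in wild-type MEF for each of the 6 identifiers (red squares) and the genes opposite it that share exon bases or lie nearest (grey circles, without Gm26694 and Thap6), on a log axis with exact 95% counting intervals. The red intervals all lie above 1 in the libraries that chose the 6, so this follows from the choice. The grey ones include 1 except that of Neurl2, which lies below it at 0.153 to 0.845. The intervals cover counting error only.

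In p53-/- MEF, with 1 library per treatment and no replicate check, the 6 identifiers split. The shares of Pigq, Rchy1, Cops3 and Ctsa were higher in the treated library and those of Dvl2 and Vps26b were lower. How many of all identifiers were higher or lower there was not counted, so nothing is read from this split. A share at least 2 times higher was found for 3 of the 6, Pigq, Rchy1 and Cops3, and for 26.1% of the 4980 identifiers with at least 10 counts over the 2 libraries, with an untreated count of 0 set to 3. Pigq had 1 count without treatment and 60 with it, 5.80 and 111 CPM, a ratio of 19.2 with a counting interval of 3.32 to 771. Rchy1 went from 0 to 37 counts and Cops3 from 0 to 52. Against a floor of 3 counts in the untreated library, the Rchy1 share was at least 3.95-fold higher and the Cops3 share at least 5.55-fold higher. The exact counting intervals, which start from the observed 0, have lower limits of 3.05 for Rchy1 and 4.35 for Cops3. The treated p53-/- library reached 68.7 CPM for Rchy1 (95% Wilson interval 49.8 to 94.7) and 96.5 for Cops3 (73.6 to 127), whose intervals overlapped those of both treated wild-type MEF libraries. For Pigq the treated level of 111 (86.5 to 143) was below both treated wild-type libraries, whose intervals began at 768 and 618 CPM.

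Ctsa had 11 counts in untreated p53-/- MEF and 65 in treated p53-/- MEF, 63.8 (35.6 to 114) and 121 (94.7 to 154) CPM, a ratio of 1.89 with a counting interval that included 1 (0.990 to 3.97). Both values were below those of untreated wild-type MEF, although the treated interval overlapped that of untreated wild-type replicate 2 (144 to 272). Dvl2 had 253 and 562 counts, 1468 (1298 to 1660) CPM untreated and 1043 (961 to 1133) treated, a ratio of 0.711 (0.612 to 0.828). Vps26b had 205 and 353 counts, 1189 (1037 to 1363) and 655 (590 to 727) CPM, a ratio of 0.551 (0.463 to 0.658). Untreated levels of Dvl2 and Vps26b were thus near those of untreated wild-type MEF, whose intervals they overlapped, while their treated levels were below both treated wild-type libraries, whose intervals began at 3227 and 3381 CPM for Dvl2 and at 3630 and 4032 for Vps26b. The size of the difference for these 2 depended on the library size used. With all reads in place of gene counts every ratio in p53-/- MEF moved up by 0.41 on the log2 scale, and those of Dvl2 and Vps26b became -0.080 and -0.45 in place of -0.49 and -0.86. The difference in response between the 2 genotypes was not tested, since it would use the comparison that chose the identifiers.

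The genes opposite are given beside the 6 in p53-/- MEF, with counting intervals. Gm16062 had 101 and 236 counts in untreated and treated p53-/- MEF, a ratio of 0.748 (0.590 to 0.954), while Cops3 went from 0 to 52 counts. Gm16278 had 17 and 55 counts, a ratio of 1.03 (0.592 to 1.90), beside the ratio of 19.2 for Pigq. Gm26694, which spans Pigq, had 105 and 227 counts, a ratio of 0.692 (0.547 to 0.880). Acadvl had 17 and 29 counts, a ratio of 0.546 (0.290 to 1.06), beside 0.711 for Dvl2. Ncapd3 had 1 and 13 counts and Neurl2 9 and 41, with intervals that included 1.

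In lung, which played no part in the choice, none of the 6 passed the threshold. edgeR's quasi-likelihood test called 0 of 2377 identifiers (0.0%) at an adjusted p below 0.05, and DESeq2 called 0, while 74 had an unadjusted p below 0.05 in edgeR. With 1 library left out the count of identifiers called was 2 to 113, the highest without treated replicate 2. Only Ctsa, Dvl2 and Vps26b had enough counts to be tested. Both treated libraries were above both vehicle libraries for 1 of these 3 identifiers, Vps26b, and for 12.5% of all identifiers tested. For Vps26b the lower treated library was at 385 CPM and the higher vehicle library at 384. Rchy1, not tested, had both treated libraries below both vehicle ones. That order rests on at most 1 count per lung library. How many of all identifiers lay lower in this way was not counted, so nothing is read from it.

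Ctsa had the highest level per kb of exon of the 6 in lung, 981 CPM after vehicle. It had 1010 and 70 counts after vehicle, 5031 and 4222 CPM, and 586 and 1486 counts after CBL0137, 3237 and 6093 CPM. The 2 treated lungs lay on either side of both vehicle lungs. The log2 fold change was 0.14 (standard error 0.38, adjusted p = 1.00 from edgeR), and its sign changed with all reads as library size (-0.072). Dvl2 had 230 and 18 counts after vehicle, 1146 and 1086 CPM, and levels of 757 and 1177 CPM after CBL0137. Here too the treated lungs lay on either side of the vehicle lungs, and the log2 fold change was -0.074 (standard error 0.35, adjusted p = 1.00 from edgeR), with a sign that changed under other settings. Vps26b had 77 and 0 counts after vehicle, 384 and 0 CPM, and 101 and 94 after CBL0137, 558 and 385 CPM. The count of 0 in the shallow vehicle lung allows up to 181 CPM when taken as 3 counts, and its 95% Wilson interval reaches 232. The log2 fold change of Vps26b was 0.90 (standard error 0.60, adjusted p = 1.00 from edgeR). Without vehicle replicate 1, when that shallow library stood alone for the vehicle group, it passed the threshold (adjusted p = 0.0473 from edgeR), and without vehicle replicate 2 it did not.

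Pigq had 3 and 0 counts in vehicle lungs and 5 and 1 in treated lungs. Rchy1 had 1 and 1 and then 0 and 1, and Cops3 3 and 0 and then 1 and 1. These 3 had too few counts to be tested. At the depth of the 2 treated lungs, 3 counts correspond to 16.6 and 12.3 CPM, so levels like those in treated wild-type MEF, 711 to 977 CPM for Pigq, 83.9 to 118 for Rchy1 and 74.0 to 87.5 for Cops3, would have been visible there and were not seen. Smaller differences were not detectable at this depth. Of the opposite genes tested in lung, Gm16278 had a log2 fold change of 0.13 (standard error 0.53) and Gm16062 one of 0.50 (standard error 0.50), both with adjusted p = 1.00 from edgeR.

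**Figure D4:**
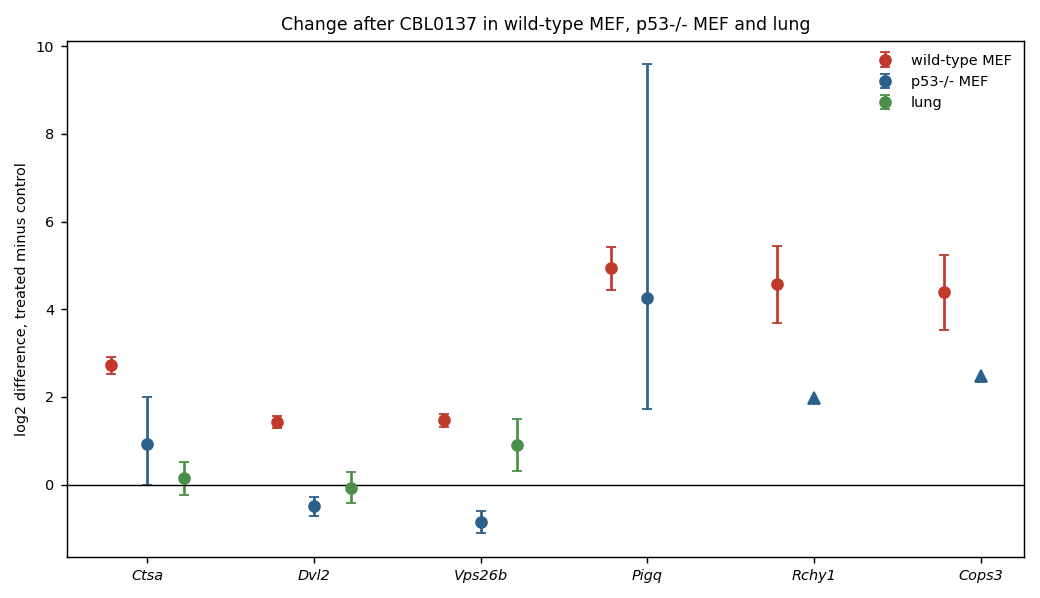
Log2 difference after CBL0137 for each identifier in wild-type MEF (red, edgeR, bars 1 standard error), p53-/- MEF (blue, ratio of shares, bars exact 95% counting interval) and lung (green, edgeR, bars 1 standard error). Triangles are lower bounds against a floor of 3 counts, and no lung value is drawn for Pigq, Rchy1 and Cops3, which had too few counts. The red points lie above 0 in the libraries that chose the identifiers, so this follows from the choice. In p53-/- MEF the blue points of Dvl2 and Vps26b lie below 0.

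Across conditions the order of levels differed between the identifiers, as a description. Ctsa was highest in lung, at 4665 ± 2019 CPM after CBL0137 and 4627 ± 572 after vehicle (SD, n = 2 each), which did not differ beyond their spread, then in treated wild-type MEF (1581 ± 59.1), untreated wild-type MEF (227 ± 40.5) and p53-/- MEF. Dvl2 was highest in treated wild-type MEF (3626 ± 39.8), and its other 5 conditions lay between 967 and 1468 CPM. Vps26b was likewise highest in treated wild-type MEF (4176 ± 131) and lowest in lung (192 ± 271 after vehicle and 472 ± 122 after CBL0137). Pigq was highest in treated wild-type MEF (844 ± 188), followed by treated p53-/- MEF (111), and the other 4 conditions, all at or below 27.1, could not be told apart. Rchy1 was highest in treated wild-type MEF (101 ± 24.4) and then treated p53-/- MEF (68.7). Cops3 was highest in treated p53-/- MEF (96.5) and then treated wild-type MEF (80.7 ± 9.56). For both, the remaining conditions had at most 3 counts in a library. Per kb of exon, the level in untreated wild-type MEF was 279 CPM for Vps26b, 202 for Dvl2 and 48.1 for Ctsa, against 4.48 for Pigq, 0.966 for Rchy1 and 1.06 for Cops3.

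Partners of the 6 proteins were barely counted. Of 28 listed gene names from the same complexes or families, 25 were in the files. Vps26c and Cop1 were each listed under an older name as well, which matched no identifier. Of the 25, 1 entered the wild-type MEF fit and 4 the lung fit, and 0 passed the threshold in either direction in edgeR. The median log2 fold change of the 4 in lung was 0.013, against 0.088 over all identifiers tested there. None of Neu1, Glb1 and Galns of the Ctsa complex had enough counts for either fit. The same held for Mdm2, Mdm4 and Cop1, the p53 regulators listed beside Rchy1. In lung 1 each of the GPI transferase, dishevelled, retromer and COP9 signalosome lists was tested. Only Vps29, the retromer phosphoesterase-like subunit, averaged 20 counts or more. It had 45 and 78 counts in untreated wild-type MEF, 328 and 406 CPM, and 50 and 181 in treated ones, 740 and 660 CPM, a log2 fold change of 0.82 (standard error 0.20) beside 1.46 for Vps26b. In p53-/- MEF, with 1 library per treatment, Vps29 had 505 CPM without and 323 with CBL0137, a ratio of 0.640 (0.492 to 0.838). How many of all identifiers were lower there was not counted, so nothing is read from the direction that Vps29 shared with Vps26b. The Vps29 ratio moves with the library size as the others do. In lung the log2 fold change of Vps29 was 0.51 (standard error 0.53, adjusted p = 1.00 from edgeR).

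The identifiers most like each of the 6 over the 10 libraries were found by Pearson's correlation of log2(CPM + 1) with the 1203 or 1204 other identifiers that averaged at least 20 counts, and are given without a test, since the libraries of a condition share their treatment and the choice of the 6 fixed part of the pattern. For Ctsa they were ENSMUSG00000032203, which has no entry in the annotation used (r = 0.986), and Gm15821 (r = 0.977). For Vps26b they were the antisense RNA Gm17029 (r = 0.983) and Rnd2 (r = 0.979). Dvl2 was most like 5830462I19Rik (r = 0.927) and Gm26574 (r = 0.909), and Pigq most like ENSMUSG00000097813 (r = 0.923) and B430305J03Rik (r = 0.903). Rchy1 was most like Scube3 (r = 0.892) and Kpna2-ps (r = 0.889), and Cops3 most like Pp2d1 (r = 0.928) and Gm26648 (r = 0.893). All 10 of these identifiers that are in the annotation share exon bases with a gene on the other strand, from 177 in Gm26574 to 3702 in B430305J03Rik. Of the 1757 identifiers in the wild-type MEF fit, 70.1% did so. The share among the identifiers compared here was not counted, so nothing is read from this. Among the 6 themselves r was highest for Pigq with Cops3 (0.868) and lowest for Ctsa with Vps26b (-0.38).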

How the data were processed

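RNA-seq of 10 libraries was analysed. The files deposited by the authors hold raw counts of reads per Ensembl identifier, 1 file for each library, with no normalization. The submitters' processing notes name TopHat2 2.0.9, HTSeq, GRCm38 and mm10, and the paper names a TruSeq stranded total RNA kit. Rows that name no gene held 98.8% to 99.2% of reads and were left out. Groups came from the labels. The 6 identifiers and all lists were chosen with earlier results of these data known.

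Counts were fitted within wild-type MEF and within lung by the quasi-likelihood test of edgeR (version 4.0.16, R 4.3.3), with TMM factors, identifiers kept by filterByExpr (count 10, total 15) and p-values adjusted by Benjamini-Hochberg over all identifiers kept (threshold 0.05). The code was first tested on simulated data. p53-/- MEF had ratios of shares with exact (Clopper-Pearson) 95% intervals. Single shares have 95% Wilson intervals, and intervals and the floor of 3 counts cover counting error only, since reads carry no molecular identifiers. Replicates differed by more than sampling noise, so none was counted as a duplicate. Overlaps came from GENCODE M21, and promoter windows and the second set of gene extents from RefSeq (GRCm38.p6). Of 38293 identifiers, 36345 matched GENCODE.

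Named were the 6 genes, each gene sharing exon bases with them on the other strand or else the nearest there, Trp53 and the gene opposite it, for each of the 6 the 2 identifiers with the highest Pearson correlation among those averaging at least 20 counts, and related genes averaging at least 20 counts. Thyn1 was added for its RefSeq overlap, and Gm26694, Ccdc106 and Ccnl2 after their values were seen. Alternatives were DESeq2 1.42.0, other library sizes, no filter, the 10 most counted identifiers left out, all libraries in one fit and each library left out. Other software was Python 3.11.15 with SciPy 1.17.1 and pandas 2.3.3.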

Additional observations from a re-analysis of the deposited data

Results flagged for a closer look

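In wild-type MEF both treated libraries were above both untreated ones for Dvl2 and Vps26b, a rise that the choice of the identifiers required. In p53-/- MEF the single treated library was below the single untreated one for both. The log2 ratio of shares in p53-/- MEF was -0.49 for Dvl2 and -0.86 for Vps26b. These opposite directions between genotypes were not tested, and p53-/- MEF have 1 library per treatment. The share of all identifiers that were lower in treated p53-/- MEF was not counted.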

How the results depend on the processing

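The log2 fold changes of the 6 identifiers in wild-type MEF were above 0 under all 64 alternative values, of which 17 fell short of the threshold. Identifiers called there numbered 149, 57 with DESeq2, and 0 to 254 with 1 library left out (2 without untreated replicate 1, 0 without untreated replicate 2 and 254 without treated replicate 1). Of the 6, 0 to 4 were called with 1 library left out, 5 with all 10 libraries in one fit, when Vps26b was not, and 4 to 6 otherwise.

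In lung the count of identifiers called was 3 with all 10 libraries in one fit and 2 to 113 with 1 library left out, and the count among the 6 was 0 to 1. The log2 fold change of Ctsa in lung was -0.072 with all reads as library size and -0.30 to 0.46 with 1 library left out, and that of Dvl2 was 0.058 without the filter, 0.083 with all libraries in one fit and -0.36 to 0.12 with 1 library left out. In p53-/- MEF, with all reads as library size, the log2 ratio was -0.080 for Dvl2 and -0.45 for Vps26b, and the other 16 alternative values kept within the counting interval.

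Where 1 library was left out, the lone library of its group is assumed to vary like the other group. No paired analysis was possible because the labels give no replicate numbers shared between groups. Depth limits Pigq, Rchy1 and Cops3 in lung, and the shallow vehicle lung limits every lung value.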
